A study of Homo sapiens with 23 samples.

Results

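Binding of phosphorylated SIRT1 and of phosphorylated MCM2 to chromatin was compared in HCT116, an established human colon carcinoma line. One ChIP-seq list held the regions recovered with an antibody to SIRT1 phosphorylated at T530 (pSIRT1), and the other those recovered with an antibody to MCM2 phosphorylated at S139 (pMCM2). Both came from untreated, unsynchronised wild-type cells grown in DMEM with 10% serum, with 1 library each. The regions are all peaks on chromosomes 1 to 22 and X, which are 121730 for pSIRT1 and 151777 for pMCM2, or 273507 of the 1741457 peaks in the 21 lists of the series. A peak was called shared where it had at least 1 bp in common with a peak of the other list, and alone where it had none.

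SIRT1 is an NAD-dependent deacetylase, and H4K16ac, acetylation of histone H4 at lysine 16, is among the marks it can remove. MCM2 is a subunit of the MCM helicase, which is loaded on DNA as origins are licensed and unwinds DNA at forks once they fire. More MCM complexes are loaded than are used in a cell cycle, and phosphorylation of MCM subunits accompanies their activation. The title of the series places phosphorylated SIRT1 at replication origins, so the overlap with pMCM2 asks where the 2 proteins occupy the same stretches of the genome. The series also maps H4K16ac in HCT116, and nascent strands (NS), short new DNA that marks start sites, in 4 HCT116 groups. These were a SIRT1-depleted line, its derivative given back T530A SIRT1, which cannot be phosphorylated at that residue (T530A rescue), its derivative given back wild-type SIRT1 (wild-type rescue), and wild-type cells given 200 nM aphidicolin, an inhibitor of DNA polymerases, for 24 h and released for 24 h. Lists of NS, pSIRT1 and pMCM2 from cell cycle fractions of K562, a chronic myelogenous leukemia line, were used for comparison.

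There were no replicates, so no p-values were computed and every difference below is between single libraries. The 95% intervals are exact binomial ones over peaks and cover counting error only, and neighbouring peaks are not independent. The total depth of each library is unknown. The pSIRT1 list counted 9555364 reads in 279.8 Mb, or 34.1 reads per kb, and the pMCM2 list counted 14126592 reads in 187.5 Mb, or 75.3 reads per kb. What each antibody binds besides its phosphorylated target cannot be read from these lists.

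By the rule of 1 bp, close to 1 in every 2 peaks was shared in both lists. Of the pSIRT1 peaks, 64617 of 121730 overlapped pMCM2 (53.1%, 95% interval 52.8 to 53.4), and of the pMCM2 peaks, 73300 of 151777 overlapped pSIRT1 (48.3%, 48.0 to 48.5). The pSIRT1 share rests on that rule: it was 32.5% where the middle of the pSIRT1 peak had to lie inside a pMCM2 peak. The shared bases came to 85.8 Mb. They made up 30.7% of the length under pSIRT1 peaks, while pMCM2 peaks covered 6.18% of the span of the chromosomes. They made up 45.7% of the length under pMCM2 peaks, while pSIRT1 peaks covered 9.22% of that span. In either direction the shared length was 4.96 times what the span alone gives. That ratio takes no account of mappable sequence or of the uneven density of both lists along chromosomes.

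The 2 lists differed in the form of their peaks. pSIRT1 peaks had a median width of 1599 bp (quartiles 999 and 2799 bp), and 1669 of them were 10 kb or wider. pMCM2 peaks had a median width of 1000 bp (quartiles 600 and 1600 bp), and 89 were 10 kb or wider. Median reads per peak were close, 51 for pSIRT1 and 47 for pMCM2, with a minimum of 16 in both lists. The highest count was 4034 for pSIRT1 and 39728 for pMCM2. Reads followed width closely across pSIRT1 peaks (Spearman's rank correlation 0.862) and less so across pMCM2 peaks (0.568). These are descriptions across peaks of 1 library.

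Shared peaks were wider and held more reads than peaks found alone, in both lists. Shared pSIRT1 peaks had a median of 65 reads in 1999 bp, against 41 reads in 1399 bp for pSIRT1 alone. Shared pMCM2 peaks had a median of 65 reads in 1200 bp, against 38 reads in 800 bp for pMCM2 alone. Per length the gap was small: a median of 34.1 reads per kb in shared pSIRT1 peaks against 32.5 in pSIRT1 alone, and 59.4 in shared pMCM2 peaks against 52.5 in pMCM2 alone. The shared peaks carried 68.4% of all pSIRT1 reads in peaks and 68.7% of all pMCM2 reads in peaks.

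The shared fraction climbed through every decile of both lists when peaks were ordered by reads. In the decile with the fewest reads, 33.3% of pSIRT1 peaks and 26.0% of pMCM2 peaks were shared. In the decile with the most reads, 88.6% of pSIRT1 peaks and 83.1% of pMCM2 peaks were shared. Wide peaks have more reads and also more room to meet another peak, so the order was repeated within quartiles of width, a split chosen after seeing the data. Among the narrowest quartile of pSIRT1 peaks, 50.4% were shared in the quartile with the most reads and 32.8% in the quartile with the fewest. Among the widest quartile of pSIRT1 peaks the same shares were 92.1% and 56.2%. For pMCM2 peaks they were 41.6% and 24.7% in the narrowest quartile and 87.8% and 44.7% in the widest. The middle quartiles of width had the same direction in both lists. Width still varied within them, from 2799 to 50599 bp in the widest pSIRT1 quartile. Ordered by reads per kb, the shared fraction did not climb at every step. For pSIRT1 it was 45.9% in the lowest decile, 57.4% in the eighth and 53.8% in the last. For pMCM2 it was 43.4% in the lowest, 41.9% in the fifth and 64.9% in the last.

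**Figure D1:**
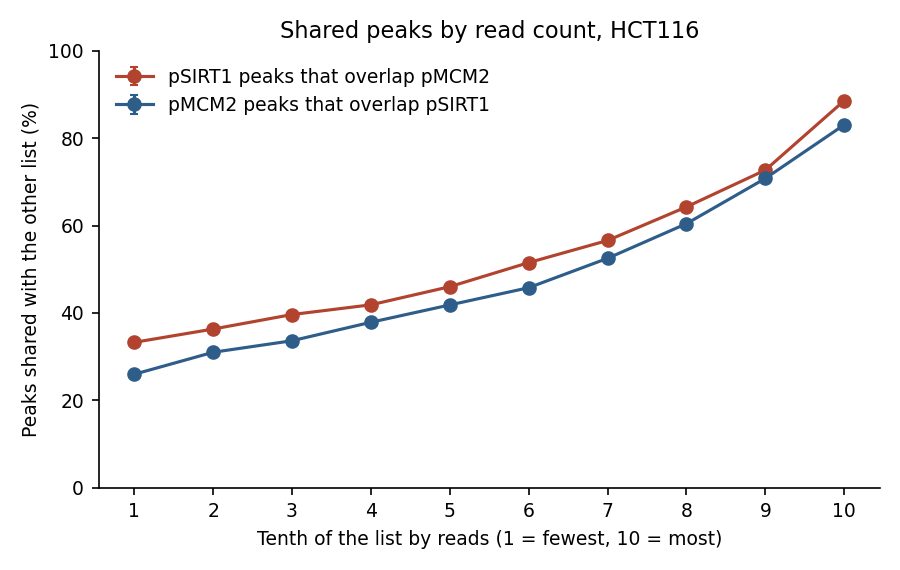
Percentage of peaks shared with the other list (vertical axis) in each decile of the list by reads (horizontal axis), for pSIRT1 and pMCM2 peaks of HCT116 cells; bars are 95% exact binomial intervals. Both lines climb at each step, to 88.6% for pSIRT1 and 83.1% for pMCM2 in the last decile.

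At the top of the lists the 2 proteins shared many of their strongest regions. Of the 12173 pSIRT1 peaks with the most reads, the top 10%, 4490 (36.9%) overlapped a top 10% pMCM2 peak, against 11.1% of all pSIRT1 peaks. Of the 15177 pMCM2 peaks in the top 10%, 4891 (32.2%) overlapped a top 10% pSIRT1 peak, against 12.2% of all pMCM2 peaks. In the top 1%, 1194 of 1217 pSIRT1 peaks (98.1%) and 1383 of 1517 pMCM2 peaks (91.2%) were shared with the other list at any rank. Only a small part of these met a peak that was itself in the top 1%. That held for 200 of the pSIRT1 peaks (16.4%, against 1.31% of all pSIRT1 peaks) and 209 of the pMCM2 peaks (13.8%, against 2.33% of all pMCM2 peaks). Top peaks were also wide, with a median of 13199 bp for pSIRT1 and 2400 bp for pMCM2 in the top 1%.

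The 64617 shared pSIRT1 peaks and 73300 shared pMCM2 peaks formed 76167 overlapping pairs. Most were simple: 55677 shared pSIRT1 peaks (86.2%) met 1 pMCM2 peak, 7107 met 2 and 1833 met 3 or more. From the other side, 70572 shared pMCM2 peaks (96.3%) met 1 pSIRT1 peak, 2609 met 2 and 119 met 3 or more. One-to-one pairs made up 51465 of the pairs (67.6%). In 40023 pairs (52.5%) the pMCM2 peak lay wholly inside the pSIRT1 peak, with median widths of 3599 bp for pSIRT1 and 800 bp for pMCM2. In 11544 pairs (15.2%) the pSIRT1 peak lay inside the pMCM2 peak, in 21834 (28.7%) each peak ran past the other, and in 2766 (3.63%) the limits were the same apart from the last base.

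For distance, width and rank, each shared pSIRT1 peak was paired with the pMCM2 peak that overlapped it the most, which gave 64617 pairs. Their middles lay a median of 500.5 bp apart (quartiles 199.5 and 1099.5 bp), with 25.6% within 200 bp, 49.2% within 500 bp and 91.6% within 2000 bp. Peaks are placed on a 200 bp grid, so shorter distances are not resolved. The signed median, pSIRT1 minus pMCM2 along the chromosome, was -0.5 bp over all pairs. It was 99.5 bp for pSIRT1 peaks of 4000 to under 10000 bp and 299.5 bp for those of 10000 bp or more. Ties in overlap went to the pMCM2 peak with the lower position. That choice by itself raises the signed median of wide peaks, so these 2 values are not read as an offset. Among all overlapping pairs at 10000 bp or more, 19.7% of pMCM2 middles lay in the first 20% of the pSIRT1 peak and 19.8% in the last. The distance grew with the width of the pSIRT1 peak, with a median of 199.5 bp under 1000 bp of width, 399.5 bp from 1000 to under 2000 bp, 699.5 bp up to 4000 bp, 1300.5 bp up to 10000 bp and 3099.5 bp at 10000 bp or more. pSIRT1 peaks were wider than their pMCM2 partner in 65.2% of pairs and narrower in 26.5%, counting differences over 0.1 on the log2 scale. The median log2 width ratio, pSIRT1 over pMCM2, was 0.64 (quartiles -0.17 and 1.58), or 1.56-fold, and the 2 widths were weakly related (rank correlation 0.277).

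Within pSIRT1 peaks of 1000 to under 2000 bp, split into equal segments of 20% of their width, the middle of the pMCM2 peak fell in the central segment in 23.4% of pairs, in the first in 12.8% and in the last in 11.4%. This central lean faded with width. In pSIRT1 peaks of 10 kb or wider, each segment held between 18.4% and 19.8% of pMCM2 middles.

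**Figure D2:**
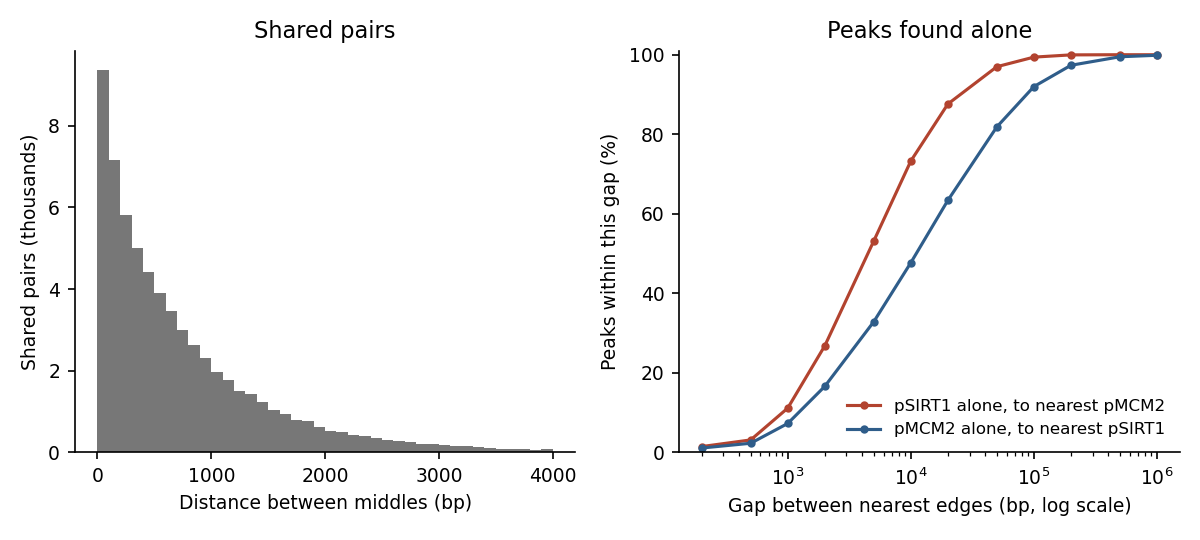
Left, number of shared pairs (vertical axis, in units of 1000) by the distance between peak middles in bins of 100 bp, drawn up to 4000 bp. Right, cumulative percentage of peaks found alone (vertical axis) by the gap to the nearest peak of the other list (log scale), for pSIRT1 alone and pMCM2 alone; pSIRT1 alone reaches 53.2% at 5000 bp and pMCM2 alone 32.9%.

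Broad pSIRT1 domains were nearly always shared. Of pSIRT1 peaks at least 4000 bp wide 82.5% overlapped pMCM2, of those at least 10 kb wide 1614 of 1669 (96.7%), and of those at least 20000 bp wide 128 of 128. Peaks of 10 kb or wider held a mean of 2.76 pMCM2 peaks, and those of at least 20000 bp a mean of 4.94. Of these domains, 4 held 10 pMCM2 peaks each, the most of any pSIRT1 peak: chr16:85535401-85576199, chr17:47511601-47552399, chr17:48252001-48292599 and chr17:77074001-77124599 (hg19). They were picked out after their values were seen. They ranked 10, 5, 7 and 9 among pSIRT1 peaks by reads, with 2101, 2447, 2391 and 2309 reads. Their pMCM2 peaks had medians of 125, 100, 80 and 82.5 reads, against 47 over all pMCM2 peaks, and the highest in each had 1479, 535, 679 and 1094 reads. A wide peak overlaps more peaks by length alone, and how much of this pattern is length was not tested.

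Peaks found alone were not alike in how far they lay from the other protein. The 57113 pSIRT1-alone peaks had a median gap of 4401 bp to the nearest pMCM2 peak, with 11.1% within 1 kb and 0.602% more than 100000 bp away. The 78477 pMCM2-alone peaks had a median gap of 11001 bp to the nearest pSIRT1 peak, with 7.28% within 1 kb and 8.01% more than 100000 bp away. The pMCM2 list was the longer of the 2, which by itself shortens the gap from a pSIRT1 peak.

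Where both proteins were found, their read counts followed each other only weakly. Spearman's rank correlation of reads over the 64617 pairs was 0.236, and of reads per kb 0.250. It is a description across peaks of 2 libraries that share the cell line and the placement of both lists. Within quartiles of pSIRT1 width, the rank correlation of reads was 0.182, 0.234, 0.255 and 0.288 from narrow to wide. Within single chromosomes it lay between 0.150 (chromosome X) and 0.310 (chromosome 17), with a median of 0.218. Of the pairs in the top quartile by pSIRT1 reads, 39.1% were in the top quartile by pMCM2 reads, against 15.7% of those in the bottom quartile by pSIRT1 reads. Median pMCM2 reads were 56, 63, 73 and 104 over the 4 quartiles of pSIRT1 reads from low to high. The log2 ratio of reads, pSIRT1 over pMCM2, had a median of -0.12, and 48.1% of pairs differed from that median more than 2-fold and 17.4% more than 4-fold.

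**Figure D3:**
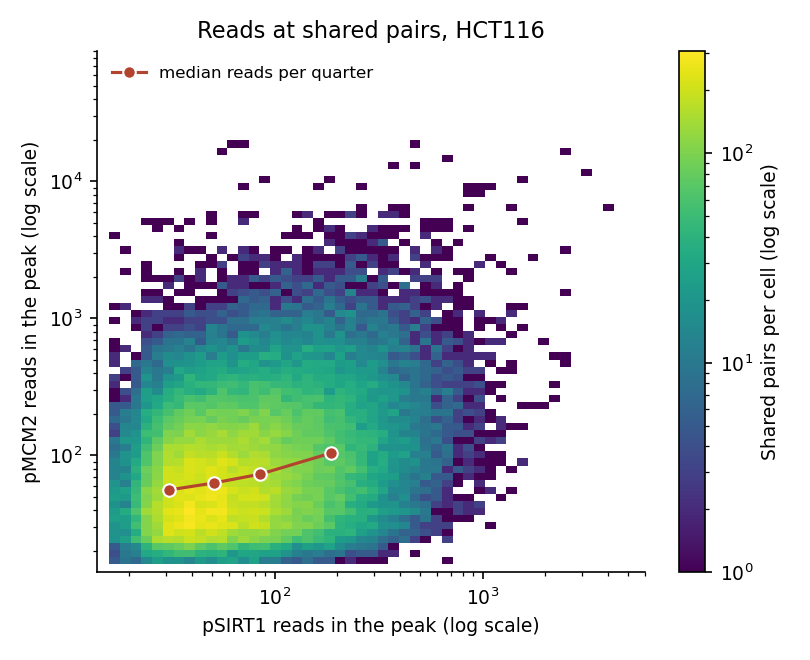
Reads in the pSIRT1 peak (horizontal axis, log scale) against reads in the pMCM2 peak (vertical axis, log scale) for the 64617 shared pairs of HCT116 cells; color gives the number of pairs in each cell. The line joins the medians of the 4 quartiles of pSIRT1 reads, at 56, 63, 73 and 104 pMCM2 reads.

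In K562 cells the same 2 targets were mapped in separate cell cycle fractions, and the pMCM2 lists were shorter than in HCT116. The share of pSIRT1 peaks that overlapped pMCM2 was 53.1% in unsynchronised HCT116, against 16.9% in the G1 fraction of K562. It was 22.1% in early S cells, 29.9% in middle S cells, 20.7% in late S cells and 32.5% in G2 cells. The share of pMCM2 peaks that overlapped pSIRT1 was 48.3% in HCT116, against 50.4% in the G1 fraction of K562. It was 18.1% in early S cells, 21.0% in middle S cells, 59.0% in late S cells and 17.3% in G2 cells. Such shares depend on list length, and the K562 lists held 24359 to 82751 pMCM2 peaks and 25542 to 120213 pSIRT1 peaks. The share of pSIRT1 bases inside pMCM2, divided by the share of the span under pMCM2, was 4.96 in HCT116, against 6.65, 14.1, 7.16, 6.42 and 6.41 in the K562 fractions in the same order. The rank correlation of reads at shared pairs was 0.236 in HCT116, against 0.210 in K562 G1, 0.142 in early S and 0.480 in late S. For reads per kb the order differed, with 0.250 in HCT116, the lowest, against 0.358, 0.271 and 0.394 in these K562 fractions. Neither was computed for middle S and G2, where the pSIRT1 lists hold a score.

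Regions where both proteins were found overlapped acetylated chromatin and start sites more often than regions with 1 of them, and the contrast was far larger for pMCM2. H4K16ac overlapped 91.2% of shared pSIRT1 peaks and 81.1% of pSIRT1 alone. It overlapped 90.3% of shared pMCM2 peaks and 43.3% of pMCM2 alone. H4K16ac peaks covered 12.6% of the span.

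NS of SIRT1-depleted HCT116 cells, which covered 12.7% of the span, overlapped 76.5% of shared pSIRT1 peaks and 58.0% of pSIRT1 alone. They overlapped 76.9% of shared pMCM2 peaks and 25.6% of pMCM2 alone. The other HCT116 start-site lists had the same order. NS of the T530A rescue overlapped 61.7% of shared pSIRT1 peaks and 44.5% of pSIRT1 alone, and 60.8% of shared pMCM2 peaks and 23.8% of pMCM2 alone. NS of the wild-type rescue overlapped 55.9% of shared pSIRT1 peaks and 40.6% of pSIRT1 alone, and 56.0% of shared pMCM2 peaks and 21.7% of pMCM2 alone. NS after aphidicolin overlapped 55.0% of shared pSIRT1 peaks and 39.8% of pSIRT1 alone, and 53.2% of shared pMCM2 peaks and 22.4% of pMCM2 alone.

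Since shared peaks were wider and had more reads, these contrasts were also taken within quartiles of width, of reads and of the number of pSIRT1 peaks in the surrounding 1 Mb. These splits were chosen after seeing the data. For H4K16ac and for each of the 4 HCT116 NS lists, shared peaks were higher than peaks alone in 12 of 12 quartiles, for both proteins. For H4K16ac the difference between shared and alone ran from 1.08 to 11.7 percentage points for pSIRT1 and from 25.5 to 52.0 for pMCM2. For NS of SIRT1-depleted cells it ran from 4.87 to 17.9 points for pSIRT1 and from 38.1 to 51.1 for pMCM2. With every peak cut to 200 bp around its middle, H4K16ac overlapped 79.8% of shared pSIRT1 peaks and 69.1% of pSIRT1 alone, and 81.5% of shared pMCM2 peaks and 34.6% of pMCM2 alone.

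Peaks that overlapped each of the 4 HCT116 NS lists, not always at the same start site, made up 33.9% of shared pSIRT1 peaks and 17.0% of pSIRT1 alone, and 32.4% of shared pMCM2 peaks and 5.71% of pMCM2 alone. Peaks in none of the 4 NS lists and outside H4K16ac made up 2.10% of shared pSIRT1 peaks and 6.56% of pSIRT1 alone. They made up 2.25% of shared pMCM2 peaks and 36.0% of pMCM2 alone, which is 28290 pMCM2 peaks outside pSIRT1, H4K16ac and the 4 NS lists. None of the 4 came from untreated wild-type cells, in which pMCM2 was mapped, so start sites of those cells are not known here.

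**Figure D4:**
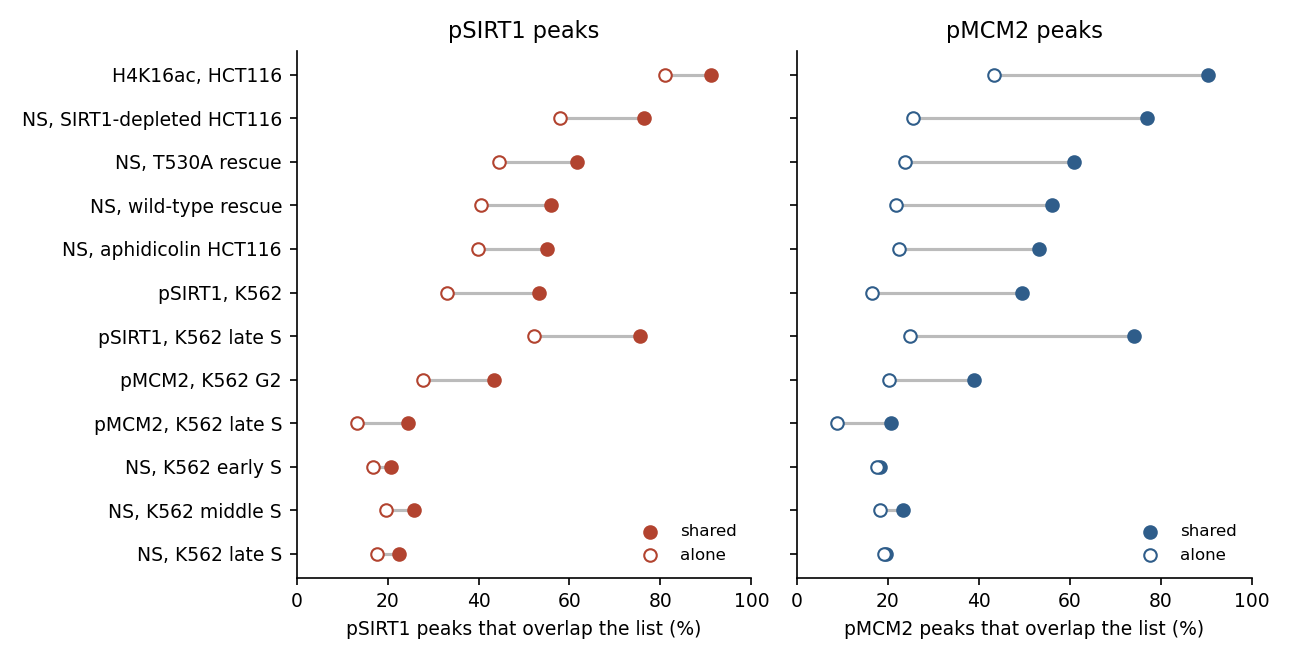
Percentage of pSIRT1 peaks (left) and pMCM2 peaks (right) of HCT116 cells that overlap each other list by at least 1 bp (horizontal axis), for shared peaks (filled circles) and peaks alone (open circles). Shared and alone lie farther apart for pMCM2 than for pSIRT1 in H4K16ac, with 90.3% and 43.3% for pMCM2, while NS of K562 late S lie at 19.7% and 19.2%.

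Shared peaks were also higher than peaks alone in each K562 list of pSIRT1 and pMCM2, but the contrast was not always larger for pMCM2 peaks. It carried over unevenly to K562 start sites. pSIRT1 of K562 early S overlapped 17.7% of shared pSIRT1 peaks and 4.73% of pSIRT1 alone, but 15.8% of shared pMCM2 peaks and 10.6% of pMCM2 alone. For pSIRT1 of K562 G2 the same shares were 25.2%, 9.28%, 23.1% and 11.5%. pSIRT1 of K562 late S overlapped 75.4% of shared HCT116 pSIRT1 peaks and 52.2% of pSIRT1 alone, and 74.2% of shared pMCM2 peaks and 24.9% of pMCM2 alone. pMCM2 of K562 G2 overlapped 43.4% of shared pSIRT1 peaks and 27.9% of pSIRT1 alone, and 39.0% of shared pMCM2 peaks and 20.3% of pMCM2 alone. NS of K562 early S overlapped 20.7% of shared pSIRT1 peaks and 16.8% of pSIRT1 alone, but 18.2% of shared pMCM2 peaks and 17.6% of pMCM2 alone. NS of K562 late S overlapped 22.5% of shared pSIRT1 peaks and 17.7% of pSIRT1 alone, and 19.7% of shared pMCM2 peaks and 19.2% of pMCM2 alone. NS of K562 middle S overlapped 25.8% of shared pSIRT1 peaks and 19.7% of pSIRT1 alone, and 23.3% of shared pMCM2 peaks and 18.3% of pMCM2 alone.

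The balance between the proteins differed among chromosomes. There were 0.661 pMCM2 peaks for each pSIRT1 peak on chromosome 18 and 0.712 on chromosome 3, but 1.83 on chromosome 12 and 4.21 on chromosome X, with a median of 1.22 over 23 chromosomes. The share of pSIRT1 peaks that overlapped pMCM2 was 29.5% on chromosome 18, 29.7% on chromosome 3 and 70.3% on chromosome 12. On chromosome X only 12.6% of 5502 pMCM2 peaks overlapped pSIRT1, which had 1306 peaks there, or 8.41 per Mb against a median of 39.2 over all chromosomes. On chromosome 19, with 102 pSIRT1 peaks per Mb, 71.7% of pMCM2 peaks overlapped pSIRT1.

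For comparison with the other lists, each list's share of its peaks on a chromosome was divided by the pSIRT1 share there, a measure chosen after seeing the data. On chromosome 3 it was 0.571 for HCT116 pMCM2, between 1.05 and 1.10 for the 5 K562 pMCM2 lists and 1.14 for H4K16ac. On chromosome 18 it was 0.530 for HCT116 pMCM2, between 0.958 and 1.25 for K562 pMCM2 and 0.938 for H4K16ac. On chromosome 12 it was 1.47 for HCT116 pMCM2, between 1.08 and 1.17 for K562 pMCM2 and 1.14 for H4K16ac. On chromosome X it was 3.38 for HCT116 pMCM2, between 2.31 and 2.79 for K562 pMCM2, between 1.49 and 4.24 for K562 pSIRT1 and 1.65 for H4K16ac. The measure rises where pSIRT1 peaks are few: HCT116 pMCM2 had 35.4 peaks per Mb on chromosome X, below its median of 48.8 over all chromosomes. It had 22.5 on chromosome 3, 24.0 on chromosome 18 and 72.7 on chromosome 12. The HCT116 NS lists lay below 1 on chromosome X, at 0.952 in SIRT1-depleted cells, 0.316 in the T530A rescue, 0.198 in the wild-type rescue and 0.221 after aphidicolin. On chromosome 3 the K562 pSIRT1 lists lay between 0.783 and 1.06, and on chromosome 18 between 0.542 and 1.01. The lowest of both was that of middle S, so on chromosome 18 a value near that of HCT116 pMCM2 was also found in a K562 pSIRT1 list. What set these counts apart was not tested. Without chromosome X, 49.6% of pMCM2 peaks overlapped pSIRT1.

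**Figure D5:**
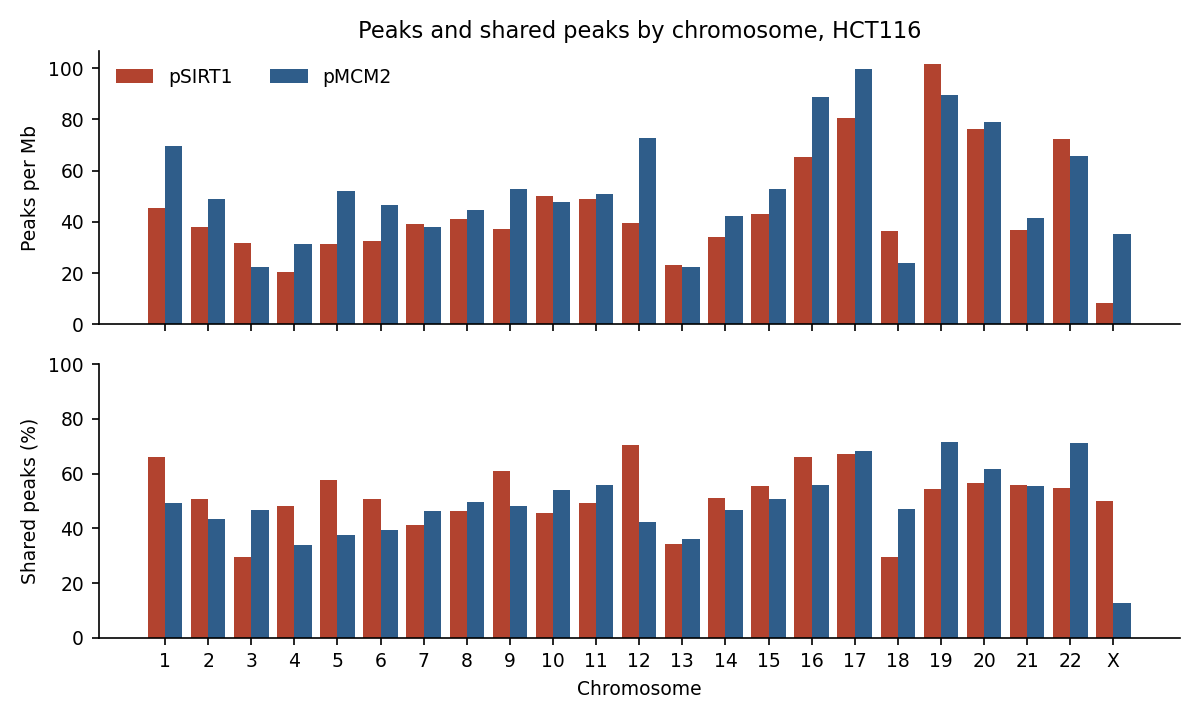
Top, peaks per Mb of pSIRT1 and pMCM2 on each chromosome of HCT116 cells. Bottom, the percentage of each list's peaks shared with the other; pMCM2 falls to 12.6% on chromosome X, and pSIRT1 to 29.5% on chromosome 18.

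Individual regions were taken by fixed rules from the ranks by reads, and none from chromosome 8. They are given as hg19 positions, with no genes named, since no annotation of that build was used here. The 10 shared pairs with the best combined ranks began with chr11:1010201-1027999, with 2497 pSIRT1 reads and 15851 pMCM2 reads in a pMCM2 peak of 5200 bp inside it, rank 4 in both lists. A neighbour at chr11:1086201-1099599 held 1535 pSIRT1 reads and 10093 pMCM2 reads. Both were in H4K16ac and in all 4 HCT116 NS lists.

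At chr18:105201-112399, pSIRT1 had 3321 reads (rank 2) and pMCM2 11981 reads (rank 8) over almost the same limits. This region also had the most reads of the NS list of SIRT1-depleted cells (42327 reads) and ranked 1 in 4 of the 5 K562 pMCM2 lists and 2 in that of middle S. It was absent from the NS lists of both rescues and of aphidicolin-treated cells. The region with the most pSIRT1 reads of all, chr2:133018601-133040799, held 4034 pSIRT1 reads and 6363 pMCM2 reads. It too was in the NS list of SIRT1-depleted cells and in no other HCT116 NS list.

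The other 6 were chr1:2614401-2632799, chr1:143274001-143284199, chr21:9695001-9705999, chr16:33947801-33966399, chr17:21299201-21321999 and chr1:142535401-142542999. They held 843 to 2597 pSIRT1 reads and 2863 to 9102 pMCM2 reads. All 10 overlapped H4K16ac, as did 99.4% of shared pSIRT1 peaks in the top quartile by reads. The 10 were in 12 to 16 of the 19 other lists. Most of these were K562 pSIRT1 and pMCM2 lists: each region was in 4 or 5 of the 5 K562 pMCM2 lists and in 5 or 6 of the 6 K562 pSIRT1 lists. Single K562 pMCM2 lists overlapped 17.7% to 43.4% of all shared pSIRT1 peaks, and single K562 pSIRT1 lists 17.7% to 75.4%. Of the 10, 5 were in all 4 HCT116 NS lists, against 33.9% of all shared pSIRT1 peaks. The other 5 were in that of SIRT1-depleted cells alone.

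The 5 pSIRT1-alone peaks with the most reads were chr18:18510801-18520399 with 1674 reads, chr6:58776201-58780199 with 1591, chr10:42383201-42400799 with 1510, chr7:61967001-61971999 with 1478 and chr1:121482601-121485599 with 1441. None was in an HCT116 NS list, which held for 22.1% of all pSIRT1-alone peaks. All overlapped H4K16ac, as did 98.3% of pSIRT1-alone peaks in the top quartile of pSIRT1 peaks by reads. The 5 peaks lay 0 to 0.913 Mb from the longest stretch of their chromosome without a peak in any list. Such stretches are bounded by the peaks of these same lists. The named peaks on chromosomes 18, 6 and 1 border theirs, so these distances are not independent of how the stretches were drawn. Of all pSIRT1-alone peaks, 0.928% lay within 1 Mb of such a stretch. Of the 10 shared pairs above, 3 also lay within 1 Mb of one, against 1.08% of all shared pSIRT1 peaks. That measure was chosen after these positions were seen, and the relation to assembly gaps was not analysed.

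The 5 pMCM2-alone peaks with the most reads varied in how many other lists held them, from 1 to 14. The first, chr1:14317801-14319800, had the most reads of the whole pMCM2 list, 39728 in 2000 bp, and no pSIRT1 peak. It was in none of the K562 pMCM2 or pSIRT1 lists, and the NS lists counted 49 to 110 reads there. The next, chr1:564401-571400, had 8624 pMCM2 reads and was among the 4 regions with the most reads in each K562 NS list. chrX:134909201-134911000 had 6021 reads and was in 1 other list, and chr17:41561801-41563000 had 5671 reads and was in 2. chr5:134258001-134263800 had 5012 reads and was in 14 other lists. All but the region on chromosome X overlapped H4K16ac and at least 1 HCT116 NS list. H4K16ac overlapped 69.6% of pMCM2-alone peaks in the top quartile of pMCM2 peaks by reads. Of all pMCM2-alone peaks, 52.5% were in no HCT116 NS list.

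Some pairs had many more reads in 1 list than in the other, as counts per whole peak. Those with the highest pSIRT1 to pMCM2 ratio, within the upper 50% of both lists by reads, were broad pSIRT1 domains that held a pMCM2 peak of 2000 to 2600 bp. The first, chr17:79047801-79074999, had 1322 pSIRT1 reads and 58 pMCM2 reads, a log2 ratio 4.63 above the median of all pairs. Per length the gap was smaller, 48.6 pSIRT1 reads per kb against 22.3 pMCM2 reads per kb. The next 4, chr16:88497401-88519599, chr17:73606201-73633399, chr16:87350601-87373399 and chr17:71521401-71550399, lay 4.13 to 4.38 above the median.

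At the other end stood pMCM2 peaks with many reads per kb, 1800 to 23400 bp wide. chr10:106415401-106416199 had 70 pSIRT1 reads against 9511 pMCM2 reads, chr22:25018801-25020799 had 85 against 10881, and chr16:3899201-3900999 had 51 against 3829. Their log2 ratios were -6.96, -6.88 and -6.11 relative to the median. The 2 lowest, chr4:49302001-49302599 and chr4:49299201-49300799, had 66 and 67 pSIRT1 reads inside the same pMCM2 peak of 23400 bp and 17901 reads. Per length the pSIRT1 peaks of these pairs were not low, at 28.3 to 110 reads per kb against 34.1 over the whole pSIRT1 list. Their pMCM2 partners held 765 to 4534 reads per kb. Between the 2 HCT116 lists, peaks of at least 500 reads per kb were mainly pMCM2 peaks, with 2157 against 3 pSIRT1 peaks. No other list was counted at that limit. In K562 the averages over whole lists went the other way. The G1 lists held 18.1 reads per kb for pSIRT1 and 12.1 for pMCM2. The same values were 215 and 17.5 in early S, and 43.0 and 18.4 in late S. The limit of 500 reads per kb was set after the HCT116 values were seen and was not scaled for depth. Of the dense pMCM2 peaks, 67.6% were shared with pSIRT1, against 48.3% of all pMCM2 peaks, and 93.8% overlapped H4K16ac, against 66.0% of all pMCM2 peaks.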

How the data were processed

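Peak lists on hg19 were used as deposited. The submitters' processing notes name the tools MACS and SICER, without versions or settings, and per the labels sheared genomic DNA of the same line was the control. Not given in the sources used here are the aligner and thresholds. The lists carry no column names, so units were inferred from their values. For pSIRT1, pMCM2, nascent-strand and most K562 lists, the authors' whole numbers for each region were taken as read counts and not scaled between libraries. In K562, pSIRT1 of middle S and of G2 came with a deposited score, and only positions were used. The H4K16ac list has a deposited score, a deposited ratio (fold over control) and −log10 columns for p and q from the authors' caller, and only its positions were used. pSIRT1 and pMCM2 regions lay on a 200 bp grid, with pSIRT1 ends 1 bp short of it.

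The analysis kept chromosomes 1 to 22 and X, and overlaps, distances between middles, widths and Spearman's rank correlation were computed with Python 3.11.15, numpy 2.4.6, pandas 2.3.3 and scipy 1.17.1. The span of a chromosome ran to its last peak end. Shares have exact binomial 95% intervals. The overlap code was tested on simulated data. Named regions were the 10 shared pairs with the lowest sum of ranks by reads, the 5 peaks of each list found alone with the most reads, and the 5 highest and 5 lowest read ratios among pairs in the upper 50% of both lists, without chromosome 8. Promoters and markers were not analysed, since the annotation at hand was of another build. The rules, regions and lists were chosen with earlier results of these data known. Alternatives varied the overlap rule, list length, reads, widths and chromosomes.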

Additional observations from a re-analysis of the deposited data

How the results depend on the processing

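No paired analysis was possible because each target had 1 library. Of 72 alternative values of 14 results, 49 could change sign and 0 did; the others are shares and distances that cannot be negative. Of the 72, 12 stayed within the counting interval or a small tolerance (5% of a median or rank correlation, 1% of a base share) and 60 moved. The cause was not tested beyond what each alternative's construction shows. With 50% of the shorter peak covered, for peaks within 1 kb, with the middle inside the other peak, in the higher-read 50% of each list, at equal list lengths, for 200 bp around the middle and with peaks within 1 kb merged, the shared percentage was 49.5, 58.3, 32.5, 49.9, 48.1, 35.6 and 54.1 for pSIRT1 and 45.1, 52.1, 41.8, 45.2, 53.2, 42.9 and 47.6 for pMCM2. Without chromosome X, chosen after seeing the data, it was 49.6 for pMCM2. The share of bases inside the other list was 26.3% for pSIRT1 and 43.9% for pMCM2 in the higher-read 50%, and 29.1% and 47.6% at equal lengths. In one-to-one pairs the median distance was 399.5 bp, the log2 width ratio 0.58 and the rank correlation of reads 0.217. In the higher-read 50% they were 700.5 bp, 0.85 and 0.195, with 0.276 for reads per kb. With 50% of the shorter peak covered the width ratio was 0.74. Without the 1% of pairs with the most reads, the rank correlation of reads was 0.215. In the width quartiles other than the second, the rank correlation of reads was 0.182, 0.255 and 0.288, and in all 4 the rank correlation of reads per kb was 0.236, 0.231, 0.234 and 0.212.

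Differences between shared and alone, in percentage points, moved as follows. For H4K16ac at pSIRT1 peaks (10.1 as reported) they were 10.7 for 200 bp around middles, 9.67 with 50% of the shorter peak, 2.83 in the higher-read 50% and 4.36 in the quartile of peaks with most pSIRT1 peaks per 1 Mb, a split chosen after seeing the data. At pMCM2 peaks (47.0) they were 45.0 with 50% of the shorter peak, 31.6 in the higher-read 50%, 45.8 without chromosome X and 27.8 in the densest quartile. For NS of SIRT1-depleted cells at pSIRT1 peaks (18.4) they were 16.6 for 200 bp middles, 17.8 with 50% of the shorter peak, 10.3 in the higher-read 50% and 16.9 in the densest quartile. At pMCM2 peaks (51.2) they were 48.9, 49.2, 45.3 and 47.5 for the same settings and 50.3 without chromosome X. For NS of the wild-type rescue at pSIRT1 peaks (15.3) they were 13.3 for 200 bp middles, 14.7 with 50% of the shorter peak and 12.0 in the higher-read 50%. At pMCM2 peaks (34.3) they were 32.6, 32.9 and 33.8 for the same settings, 33.4 without chromosome X and 30.1 in the densest quartile. Peak lists set aside weaker regions before deposit, and a peak found alone may have fallen under the other list's limit. Those limits are not given, and 16 reads was the lowest count seen in both lists.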
